A study of Mus musculus with 6 samples.

Results

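The 50 kb bins described here lay in the A compartment in both control libraries and in the B compartment in both Brg1 knockdown libraries of Hi-C, an assay that counts pairs of DNA segments lying close together in the nucleus. All 6 libraries came from wild-type E14 mouse embryonic stem cells, grown in serum with leukemia inhibitory factor, transiently transfected with esiRNA (pools of short interfering RNAs) and harvested 48 h later. The groups were Brg1KD (esiRNA against Smarca4, the gene of the remodeller ATPase Brg1), Ino80KD (esiRNA against Ino80, which encodes the motor of another remodeller, INO80) and Control (esiRNA against EGFP), with 2 libraries each. Libraries with the same replicate number share a batch, and nothing in the labels says that replicates were separate cultures, so the spread between libraries may be technical. Each library gives every bin 1 of 8 subcompartment labels, which the authors ranked in equal steps from B.2.2 (step 1, the most B-like) through B.1.1 (step 4) and A.2.2 (step 5) to A.1.1 (step 8, the most A-like). A bin belonged to the set when its rank was above 0.5, that is in A, in both Control libraries and 0.5 or below in both Brg1KD libraries, and it had to be labelled in all 6 libraries. This held for 478 of 47717 bins, 23.9 Mb of autosomes. The bins were chosen by their ranks in Brg1KD and Control, and those ranks are given as a description with no test.

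In Hi-C maps the chromosomes separate into A, the gene-rich and transcribed part of the nucleus, and B, the gene-poor and mostly silent part, often found at the nuclear lamina. Subcompartments split each of these further, and the weakest A and weakest B states lie next to each other on that scale. Brg1 is the motor of esBAF, the embryonic stem cell form of the BAF complex, which moves and evicts nucleosomes and keeps enhancers and promoters accessible. INO80 is a separate remodeller that spaces nucleosomes and acts at promoters and at origins of replication.

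The set holds 131 stretches of adjacent bins, and promoters from the leading ones show how mixed its genes are. The promoters below are from RefSeq (GRCm38.p6, the assembly of mm10), 250 bases before and 50 after the start of a gene, 1 for each of the first 6 stretches by length with an entry, with each CG dinucleotide in capitals. They belong to Trpm8, a cold-sensing ion channel (chr1:88306485-88306784, plus strand), Kif26b, of the kinesin family (chr1:178528875-178529174, plus strand), and Mrpl32, a mitochondrial ribosomal protein (chr13:14612988-14613287, minus strand). The others are those of Cfap161, a cilium protein (chr7:83794790-83795089, minus strand), Psapl1, a prosaposin-like gene (chr5:36203771-36204070, plus strand), and Iyd, which recovers iodide from iodotyrosines (chr10:3540024-3540323, plus strand).
Trpm8: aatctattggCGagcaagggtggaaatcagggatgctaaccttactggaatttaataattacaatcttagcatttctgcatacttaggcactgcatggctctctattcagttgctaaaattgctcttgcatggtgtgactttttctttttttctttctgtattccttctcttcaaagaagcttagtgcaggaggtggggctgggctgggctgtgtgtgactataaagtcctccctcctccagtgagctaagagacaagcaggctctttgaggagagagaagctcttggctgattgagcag
Kif26b: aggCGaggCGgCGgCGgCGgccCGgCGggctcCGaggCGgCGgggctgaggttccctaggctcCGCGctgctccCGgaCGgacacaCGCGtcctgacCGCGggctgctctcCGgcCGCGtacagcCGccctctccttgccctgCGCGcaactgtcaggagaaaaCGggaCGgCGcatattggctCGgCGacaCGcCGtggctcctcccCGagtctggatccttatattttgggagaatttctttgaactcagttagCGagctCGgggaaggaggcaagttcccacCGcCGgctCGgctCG
Mrpl32: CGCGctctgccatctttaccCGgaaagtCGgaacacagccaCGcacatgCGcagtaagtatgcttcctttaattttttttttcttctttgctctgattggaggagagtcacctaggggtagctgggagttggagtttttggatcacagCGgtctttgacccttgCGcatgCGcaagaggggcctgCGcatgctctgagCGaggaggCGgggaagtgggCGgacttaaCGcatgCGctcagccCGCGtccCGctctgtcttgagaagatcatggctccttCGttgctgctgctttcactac
Cfap161: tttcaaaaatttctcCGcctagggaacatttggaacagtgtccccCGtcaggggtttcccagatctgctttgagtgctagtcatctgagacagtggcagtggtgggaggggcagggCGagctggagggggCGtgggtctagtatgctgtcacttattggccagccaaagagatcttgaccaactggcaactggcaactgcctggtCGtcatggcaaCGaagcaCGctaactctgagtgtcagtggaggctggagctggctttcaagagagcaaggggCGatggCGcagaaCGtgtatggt
Psapl1: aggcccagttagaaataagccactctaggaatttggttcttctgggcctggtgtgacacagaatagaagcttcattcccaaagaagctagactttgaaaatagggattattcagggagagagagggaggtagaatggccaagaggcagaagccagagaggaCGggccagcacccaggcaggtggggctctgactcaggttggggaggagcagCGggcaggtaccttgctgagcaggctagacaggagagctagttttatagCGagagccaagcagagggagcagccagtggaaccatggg
Iyd: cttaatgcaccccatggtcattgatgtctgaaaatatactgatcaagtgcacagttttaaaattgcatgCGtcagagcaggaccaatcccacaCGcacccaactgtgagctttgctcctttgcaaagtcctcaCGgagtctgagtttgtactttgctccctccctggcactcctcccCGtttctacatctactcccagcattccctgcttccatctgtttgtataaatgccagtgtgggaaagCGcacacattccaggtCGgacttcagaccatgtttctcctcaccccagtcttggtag
Kif26b and Mrpl32 have 38 and 19 CG dinucleotides, against 10 in Cfap161, 6 in Iyd, 3 in Psapl1 and 1 in Trpm8. CG-rich and CG-poor promoters, the kinds typical of broadly used and of tissue-restricted genes, thus both lay in chromatin that left A.

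Most of these bins made the shortest possible crossing of the border between A and B. In Brg1KD, B.1.1 was the label of 394 and 411 of the 478 bins (replicates 1 and 2), B.1.2 of 69 and 49, and the 2 deepest B labels together of the remaining few. In Control, A.2.2 was the label of 356 and 383 bins, A.2.1 of 104 and 70, A.1.2 of 14 and 21, and A.1.1 of 4 in each library. The mean step was 3.79 and 3.82 in the Brg1KD libraries and 5.30 and 5.26 in the Control libraries, a mean difference of -1.48 steps (-1.51 in batch 1 and -1.44 in batch 2). Exactly 263 bins (55.0%) were B.1.1 in both Brg1KD and A.2.2 in both Control libraries, the values just inside the rule. A further 114 bins fell by at least 2 steps on average and 15 by at least 4.

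Many more bins lay just outside. Brg1KD replicate 1 alone missed the rule in 339 bins, 279 of them by 1 step, and Brg1KD replicate 2 in 350 bins, 272 of them by 1 step. Control replicate 1 alone missed in 390 bins (320 by 1 step) and Control replicate 2 in 382 (317 by 1 step). The set is therefore the part of a larger group of border bins on which all 4 libraries were unanimous. Without Brg1KD replicate 1 or 2 the rule held for 817 or 828 bins, and without Control replicate 1 or 2 for 868 or 860. The set makes up 1% of all bins and 2.66% of the 17992 bins in A in both Control libraries, while in the other direction 215 of the 27929 bins in B in both Control libraries (0.77%) were in A in both Brg1KD libraries. Over all bins, 38.5% and 38.8% were in A in the Brg1KD libraries, 38.5% and 38.6% in Ino80KD, and 39.5% and 39.7% in Control. A lower share in A than in Control was thus not particular to Brg1KD.

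**Figure D1:**
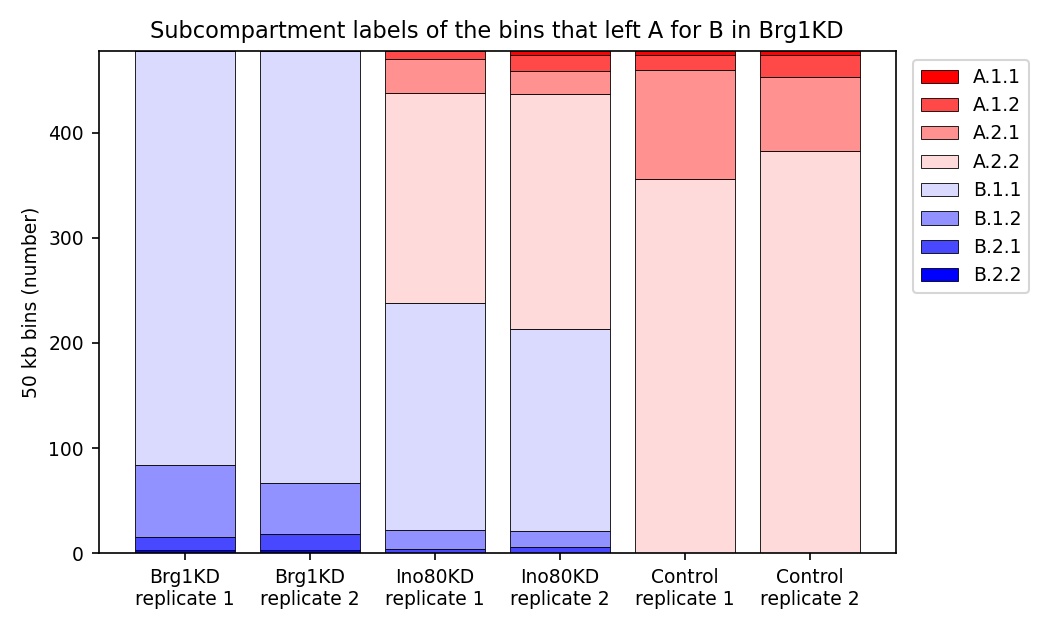
Number of 50 kb bins with each subcompartment label in each library, over the 478 bins that left A for B in Brg1KD. The Brg1KD bars hold mostly B.1.1 (394 and 411 bins) and the Control bars mostly A.2.2 (356 and 383), as the rule requires of them, while the Ino80KD bars are divided between B and A, with 240 and 265 bins in A.

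Ino80KD, which the rule did not use, lay between the other groups in these bins. The rule put Control above the border and Brg1KD at or below it. A place between them can follow from that choice and was not tested. The mean step was 4.55 and 4.63 in the Ino80KD libraries, 240 bins (50.2%) were in A in replicate 1, and 265 (55.4%) in replicate 2. Both Ino80KD libraries were in B in 154 bins (32.2%), both were in A in 181 (37.9%), and 143 were divided. Of all bins in A in both Control libraries, 1.63% were in B in both Ino80KD libraries. Ino80KD and Brg1KD are set against the same Control libraries, which the rule chose to be high, so this share is not independent of the rule and was not tested. By Ino80KD replicate 1 alone, that is without replicate 2, 49.8% were in B, and by replicate 2 alone 44.6%.

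The Control label can be held fixed, though both knockdowns are still set against the same Control libraries. A bin whose Control label was read too high would count in both, so the choice by the rule is not removed. Among bins that were A.2.2 in both Control libraries, 138 of the 325 that left A in Brg1KD (42.5%) were also in B in both Ino80KD libraries, and 102 of the 1603 others (6.36%). Among bins that were A.2.1 in both, the counts were 4 of 49 (8.16%) and 5 of 2465 (0.203%). Neighbouring bins share segments, so these bins are far fewer independent observations than their number, and no test is given. By stretch, every bin was in B in both Ino80KD libraries in 29 of the 131 stretches, and in A in both in 52. In limma's fit of Ino80KD minus Control on all bins (Benjamini-Hochberg adjusted p below 0.05), 2.37% of all bins were called towards B. The share was 2.92% of bins in A in both Control libraries, and 408 of all bins were called towards A. The rule chose the Control libraries to be high, which favours calls towards B, so the fit is no test of the set. Of the 478 bins, 126 were called towards B and 0 towards A. Without Ino80KD replicate 2 the count was 209. With 1 common variance for all bins, 26 were called, with 0.402% of all bins. The fits differ widely, so these counts describe the ranks and support no call on a single bin.

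The stretches were short, and longer ones crossed by a smaller step. Their median length was 150 kb, the longest 700 kb, and 40 of the 131 were a single bin, while the 44 stretches of 5 bins or more held 298 bins (62.3%). The bins entering A from B in Brg1KD formed 76 stretches with a median of 100 kb. In stretches of 5 bins or more the mean difference was -1.24 steps and no bin fell by 4 steps. In single bins it was -2.86 steps, and 10 of the 40 fell by 4 steps or more.

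The settings of the stretches were told apart from the bins on either side in Control. In 55 stretches (161 bins) A lay on one side and B on the other, at a border between compartments; 28 of them were a single bin. In 24 stretches (142 bins, median 275 kb) A lay on both sides, inside an A domain. In 22 stretches (73 bins) the stretch was a whole Control A domain, such as that of Cfap161, Mesd and Cemip (450 kb). Of these 22, 8 had B on both sides, and the others had a side that was divided between the Control libraries or unlabelled. The remaining stretches had A on one side and a divided or unlabelled bin on the other. Of the 15 bins that fell by 4 steps or more, 14 were in stretches between A and B and 1 between A and a divided bin. Of the 478 bins, 83 (17.4%) touched a bin in B in both Control libraries, against 6.28% of all bins in A in both Control libraries and 10.7% of those in A.2.2 in both.

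The levels beside the stretches are given as a description, since a stretch ends where a bin fails the rule: a side bin in A in both Control libraries cannot be in B in both Brg1KD libraries. In the 55 stretches between A and B, the mean step was 3.27 and 3.31 in Brg1KD and 5.68 and 5.73 in Control. In the neighbouring bin on the A side it was 5.91 and 5.82 in Brg1KD, against 6.07 and 6.16 in Control. In the neighbouring bin on the B side it was 2.91 and 2.80 in Brg1KD, against 2.85 and 2.80 in Control. On the A side both Brg1KD libraries were below both Control libraries by a fraction of a step. Both Ino80KD libraries were too, at 5.87 and 6.05. These side bins were chosen to be in A in both Control libraries, so lower values in the knockdowns can follow from that choice. On the B side the groups overlapped. Where A lay on both sides the stretch lay below its sides in Control too. Its mean step was 4 in both Brg1KD libraries, against 5.28 and 5.14 in Control, and in the bin before it 6.12 and 6.21 in Brg1KD, against 6.29 and 6.46 in Control. In the bin after it the values were 5.33 and 5.79 in Brg1KD, against 5.75 and 6 in Control. In Ino80KD the same stretches had 4.58 and 4.61, the bin before them 6.08 and 6.12, and the bin after them 5.58 and 5.67.

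**Figure D2:**
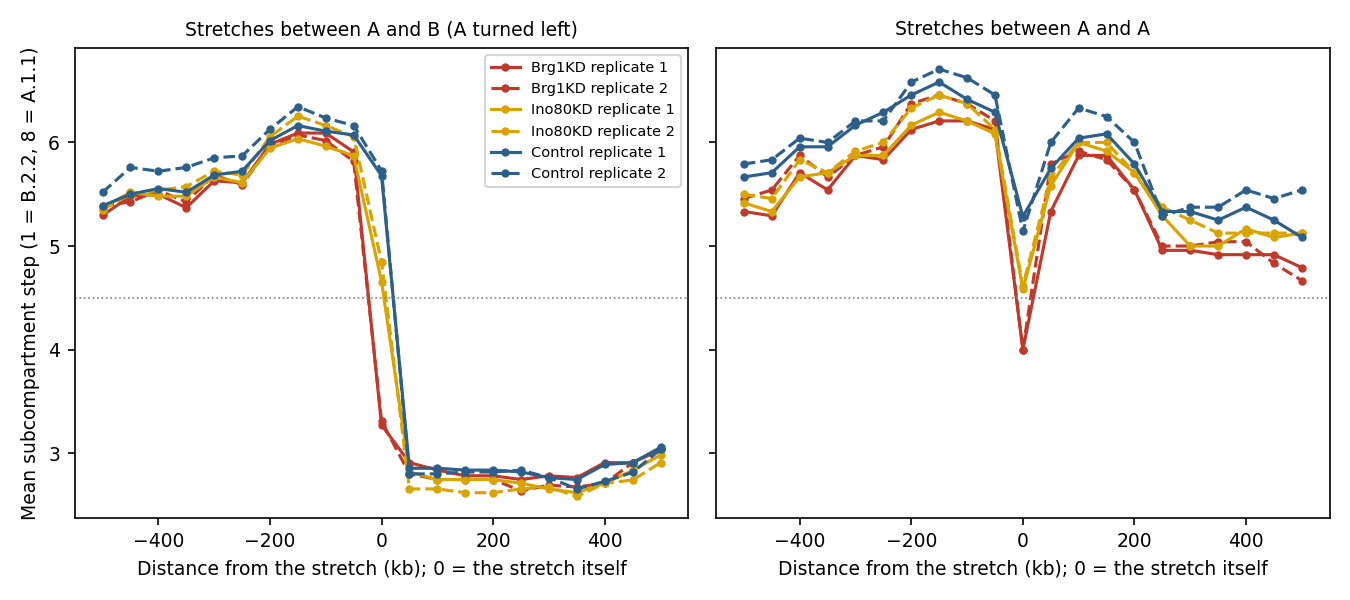
Mean subcompartment step (1 is B.2.2, 8 is A.1.1) in each library at the stretches that left A (distance 0, averaged over the stretch) and in the 50 kb bins up to 500 kb on either side, for 55 stretches between A and B in Control, turned so that A lies left, and for 24 stretches between A and A. The dotted line is the border between B and A; at distance 0 Brg1KD lies below it by the rule, and on the B side of the left panel the groups overlap in the nearest bin.

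The longest stretch, chr1:88300001-89000000, holds the channel gene Trpm8, Spp2, a secreted bone phosphoprotein, Glrp1, and the small GTPase gene Arl4c. Its mean step was 4 and 3.71 in Brg1KD, 5 in both Ino80KD libraries, and 6 and 5.71 in Control. It fell by 2 steps, and both Ino80KD libraries kept all of its 14 bins in A. The next, chr1:178450001-179100000 (13 bins), lies over Kif26b, with a mean step of 4 in both Brg1KD libraries, 4 and 5.31 in Ino80KD, and 5 and 5.08 in Control. Its Ino80KD libraries lay on opposite sides of the border. The third, chr13:14150001-14650000, holds the ubiquitin ligase gene Hecw1, Mrpl32, the proteasome subunit gene Psma2 and AW209491. It had 3 and 4 in Brg1KD, 4 in both Ino80KD libraries and 5 in both Control libraries, so that Ino80KD and Brg1KD lay on the same side of the border in all of its 10 bins.

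The A domain of chr7:83750001-84200000 was lost as a whole. It holds Cfap161, the talin-like Tlnrd1, Mesd (a chaperone of LDL-receptor-related proteins), Cemip (which degrades hyaluronan) and the depalmitoylase gene Abhd17c. The mean step was 4 in both Brg1KD libraries, 4.67 and 4.33 in Ino80KD, and 5.33 in both Control libraries. In Ino80KD, 5 of its 9 bins were in B in both libraries and 2 in A in both.

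The next 5 stretches, of 450 kb each, stood at step 4 in both Brg1KD libraries and at step 5 in both Control libraries, and they differed in Ino80KD. Those of the homeobox gene Barx2 (chr9:31450001-31900000) and of Usp43, Cfap52, the SNARE gene Stx8 and the axon guidance gene Ntn1 (chr11:67850001-68300000) were at step 4 in both Ino80KD libraries. That of the sortilin-family receptor gene Sorcs2 and of Psapl1 (chr5:36000001-36450000) had 4.44 and 4. That of Iyd and Plekhg1 (chr10:3500001-3950000) had 5 and 4, so the Ino80KD replicates disagreed. That of Mdm1 and the cytokine genes Il22, Iltifb and Ifng (chr10:118150001-118600000) had 4.78 in both, with 8 of 9 bins in A in both.

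Of the rest of the 12 longest stretches, 1 holds no midpoint of a protein-coding gene and is overlapped by Zmat4 (chr8:24000001-24400000). The stretch of the adhesion receptor genes Adgrf1 and Adgrf5 with the protease gene Mep1a (chr17:43100001-43500000) had a mean step of 4 in both Brg1KD libraries, 4.25 and 4 in Ino80KD, and 6 and 5.25 in Control. That of Habp2, a hyaluronan-binding protease (chr19:55950001-56350000), was at step 4 in both Brg1KD and both Ino80KD libraries and at step 5 in both Control libraries.

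**Figure D3:**
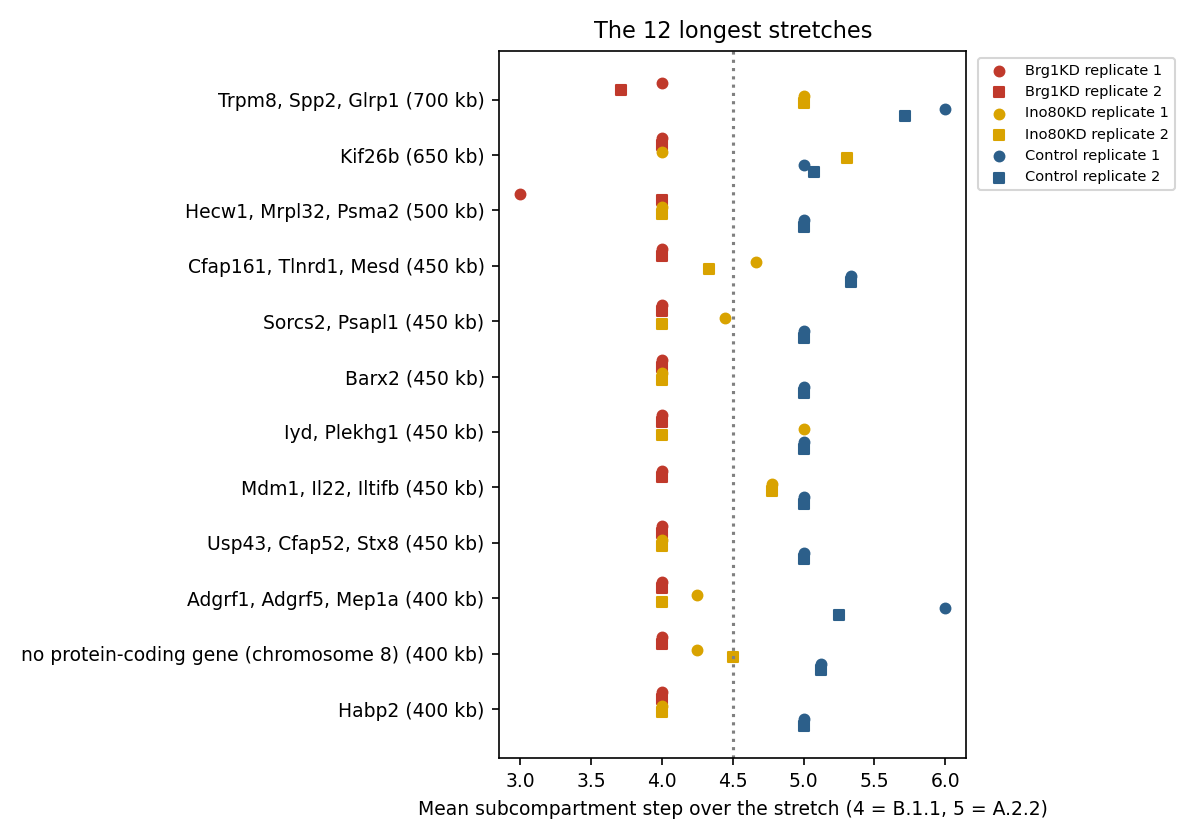
Mean subcompartment step of the 12 longest stretches in each library (circles replicate 1, squares replicate 2), named by up to 3 of their protein-coding genes. The stretch on chromosome 8 labelled as having no protein-coding gene holds no midpoint of one and is overlapped by Zmat4. Brg1KD lies at or below step 4 and Control at or above step 5 in each of them, which the rule requires, while Ino80KD reaches from step 4 to above step 5.

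The deepest falls were single bins. On chr7:63800001-63850000, which no protein-coding gene overlaps, the label was B.2.1 in both Brg1KD libraries, B.2.1 and A.1.2 in Ino80KD, and A.1.1 and A.1.2 in Control, a fall of 5.5 steps. The bin of Myot, which encodes the sarcomere protein myotilin (chr18:44300001-44350000), was B.2.2 in both Brg1KD libraries, A.2.1 in both Ino80KD libraries, and A.2.1 and A.1.2 in Control, also a fall of 5.5 steps. The bin chr15:53100001-53150000, inside Ext1, which makes heparan sulfate, and the bin chr19:21850001-21900000, which holds an end of Cemip2, both fell by 5 steps. In Ino80KD the first was A.1.2 and B.2.1 and the second A.2.1 and A.1.2. The bin of the carboxylesterase gene Ces4a (chr8:105100001-105150000) was B.1.1 and B.1.2 in Brg1KD, B.1.2 and B.1.1 in Ino80KD, and A.1.1 in both Control libraries. That of the keratin genes Krt17 and Krt42 (chr11:100250001-100300000) was B.1.2 and B.1.1 in Brg1KD, B.1.1 and B.1.2 in Ino80KD, and A.1.1 in both Control libraries. The bin of Kctd12, which encodes a partner of GABA-B receptors (chr14:102950001-103000000), was B.2.1 and B.2.2 in Brg1KD and A.2.1 in both Ino80KD and both Control libraries. It fell by 4.5 steps, as far as the bins of Ces4a and of the keratin pair. Thus the bins of Myot, Kctd12 and Cemip2 were in A in both Ino80KD libraries, those of Ces4a and the keratins in B in both, and the chr7 and chr15 bins were divided.

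Counted by midpoint, the bins that left A were poor in protein-coding genes, between what stayed in A and what stayed in B. They held 128 protein-coding genes by midpoint, 5.36 per Mb, and 366 of the 478 bins (76.6%) held no gene midpoint. Of the 63 stretches without a midpoint, 33 were overlapped by a gene. Counting every gene that overlaps gave 7.74 per Mb, and no like value is given for the other classes of bin. Bins that stayed in A in all 4 Brg1KD and Control libraries had 16.6 genes per Mb, bins that stayed in B had 3.73, and all bins 8.54. Weak A bins that stayed, those in A.2.2 in both Control libraries and in A in both Brg1KD libraries, had 9.49 per Mb. Bins entering A had 7.91. Long noncoding RNA genes also lay between, with 7.45 per Mb in the bins that left A, 8.21 in all that stayed in A and 3.06 in bins that stayed in B. Unlike protein-coding genes, they were not sparser than in the weak A bins that stayed (6.90) or in all bins (5.14). Genes had a median length of 25.0 kb in the bins that left, 26.6 kb in the weak A bins that stayed and 18.6 kb in all that stayed in A. These are descriptions of annotation with no test, since neighbouring bins are not independent.

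CG-rich promoters made up a like share of the genes that left A and of those in other weak A bins. A promoter was called CG-rich when its observed over expected CG ratio was above 0.6, and this held for 46 of the 100 RefSeq promoters whose start lay in a bin that left A (46%). The share was 47.5% of 442 in the weak A bins that stayed, 62.1% in all bins that stayed in A and 18.5% in bins that stayed in B. TATAAA on either strand, a TATA-box-like word, was found in 17% of the promoters that left A, 9.50% of those in the weak A bins that stayed, 8.29% in all that stayed in A, 27.4% in bins that stayed in B and 13.4% of all promoters placed. GGGCGG on either strand, a GC-box word, which overlaps with CG content, was found in 50%, 48.9%, 58.1%, 20.3% and 47.5%, in the same order. A match is a word in the sequence and not a bound site. Of the promoters printed above, those of Trpm8, Psapl1 and Iyd hold TATAAA on one strand or the other and those of Kif26b and Mrpl32 hold GGGCGG.

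**Figure D4:**
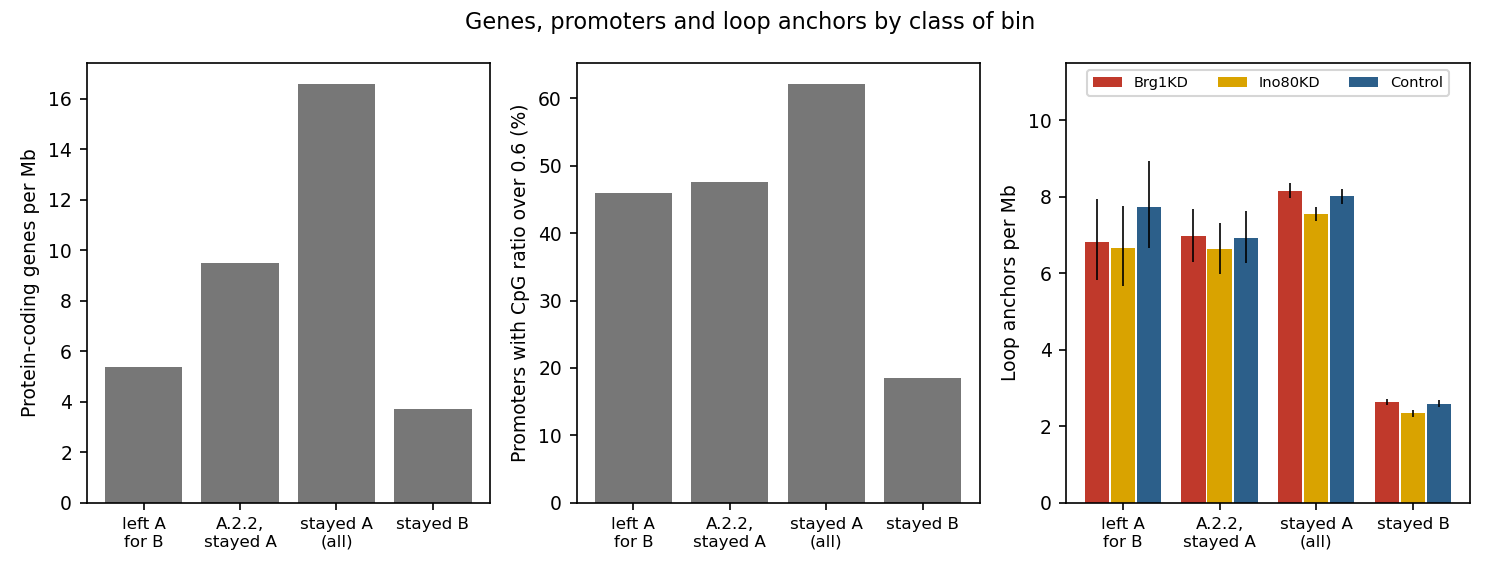
Protein-coding genes per Mb, share of promoters with an observed over expected CG ratio above 0.6, and loop anchors per Mb in the loop list of each group, for bins that left A for B, bins in A.2.2 in both Control libraries that stayed in A, all bins that stayed in A and bins that stayed in B. Bars on the anchors are exact Poisson 95% intervals that cover counting error only; the bins that left A have 5.36 genes per Mb, and their anchors number 6.82 per Mb in Brg1KD, 6.65 in Ino80KD and 7.74 in Control, with overlapping intervals.

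The pluripotency genes, which keep the stem cell state, were not among the genes that left A. Of 23 pluripotency genes placed, 0 were in the bins that left, as were 0 of 14 esBAF subunit genes, 0 of 14 INO80 subunit genes, 0 of 12 genes of chromosome architecture and 0 of 14 Polycomb genes, with 0.628% of all 20371 protein-coding genes in these bins and 0.893% of those in A in both Control libraries. Lists this short would hold few or no members at those rates, so their zeros set them apart from no other list. Smarca4 and Ino80 themselves were in A.1.1 in all 6 libraries, as was Pou5f1; the knockdowns themselves cannot be checked in Hi-C data. Of the lineage lists, 0 of 12 mesendoderm, 0 of 14 neuroectoderm and 0 of 11 trophectoderm genes were in these bins, and 1 of 12 primitive endoderm genes, the laminin gene Lama1. The bin of Lama1 was B.1.1 and B.1.2 in Brg1KD, and A.2.2 in both Ino80KD and both Control libraries.

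Of gene families, 5 of 362 solute carriers (1.38%), 1 of 92 potassium channels, 1 of 68 axon guidance genes (Ntn1) and 1 of 1101 olfactory receptors (Olfr1417) lay in these bins. No zinc finger gene of the Zfp series (0 of 377), no cadherin or protocadherin (0 of 90), no vomeronasal receptor (0 of 334) and no gene of the immunoglobulin-domain adhesion list (0 of 36) did. The share of all genes was 0.628%, and 0.893% of those in A in both Control libraries, and only genes in A there could leave it. Of the families, 21 vomeronasal receptors, 80 olfactory receptors and 14 adhesion genes were in A in both Control libraries, so few of them could have left. The Zfp series had 308 genes in A there and the cadherins and protocadherins 53. That 0 of either left was not tested. Of the genes in A there, 1.72% of the 291 solute carriers left, 1.25% of the olfactory receptors, 1.89% of the 53 potassium channels and 2.22% of the 45 axon guidance genes, each of the last 3 shares being 1 gene. The solute carriers were Slc2a2, the glucose transporter GLUT2, Slc40a1, the iron exporter ferroportin, Slc7a13, and the neighbours Slc22a21 and Slc22a4, carnitine and organic cation transporters. The Slc2a2 bin (gene at chr3:28697903-28728361) was B.1.1 in both Brg1KD libraries, A.2.2 in both Ino80KD libraries, and A.2.1 and A.2.2 in Control. The Slc40a1 bin (gene at chr1:45908070-45926532) was B.1.2 and B.1.1 in Brg1KD and A.2.2 in the other 4 libraries. The bin of Kcnj6, a G-protein-gated potassium channel (gene at chr16:94744980-94997696), was B.1.1 in both Brg1KD libraries and A.2.2 in the other 4. The Olfr1417 bin, in a stretch with the SNARE gene Stx3, was B.1.2 and B.2.1 in Brg1KD, A.2.1 and A.1.2 in Ino80KD, and A.1.2 and A.2.1 in Control.

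Clusters of cytokine genes were among the stretches, a group picked out after its values were seen. Of 33 genes of interleukins and interferon gamma placed, 28 lay in A in both Control libraries and 9 in bins that left A, in 3 stretches, with 0.893% of all genes in A in both Control libraries in such bins. These are Il10, Il19, Il20 and Il24 on chromosome 1, Il2 and Il21 on chromosome 3, and Il22, Iltifb and Ifng on chromosome 10. Neighbours share a stretch, so 9 genes amount to 3 separate changes. All 9 were B.1.1 in both Brg1KD libraries and A.2.2 in both Control libraries. In Ino80KD the Il10 stretch was in B in replicate 1 and in A in replicate 2, the Il2 stretch in A in replicate 1 and in B in replicate 2, and the bins of the Ifng stretch that hold these genes were in A in both. The stretch of the cytokines on chromosome 1 (chr1:130700001-131050000) also holds Pigr, which carries antibodies across epithelia, and the Fc receptor genes Fcamr and Fcmr.

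Other genes that fell by 2 steps, chosen after their values were seen, were Kit, the receptor of stem cell factor (chr5:75574987-75656722), and the neighbours Oxtr, the oxytocin receptor, and Cav3, the caveolin of muscle (both on chromosome 6). The Kit stretch of 150 kb was a whole Control A domain. The Kit bin was B.1.1 in both Brg1KD libraries, A.2.2 and A.2.1 in Ino80KD, and A.2.1 in both Control libraries. The bin of Oxtr and Cav3 was B.1.1 in both Brg1KD libraries, A.2.2 and B.1.2 in Ino80KD, and A.2.1 in both Control libraries. Over all 128 genes, 62 were in bins that were B.1.1 in both Brg1KD and A.2.2 in both Control libraries, and 11 in bins that fell by 4 steps or more. In Ino80KD, 36 of the 128 were in B in both libraries, 49 in A in both and 43 divided.

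The bins that left A held loop anchors at a density like that of the weak A bins that stayed. In all 3 lists it was below that of all bins that stayed in A, by least in Control. Loops are pairs of 10 kb anchors in contact more often than their surroundings, given as 1 list per group with no score, and taken as pooled from both libraries because the lists are named as merged, so they allow no test between groups. The bins that left A held 163 anchors in the Brg1KD list (exact Poisson 95% interval 139 to 190, counting error only), 159 in the Ino80KD list (135 to 186) and 185 in the Control list (159 to 214). Per Mb this is 6.82, 6.65 and 7.74. Bins that stayed in A had 8.15, 7.55 and 8.01, the weak A bins that stayed 6.97, 6.63 and 6.93, and bins that stayed in B 2.64, 2.34 and 2.59. All bins together had 4.90, 4.46 and 4.82. In Brg1KD, where they were in B, the bins that left A thus had an anchor density above that of bins that stayed in B. The latter lay deeper in B, at a mean step of 1.99 and 1.90 in Brg1KD, against 3.79 and 3.82. Bins entering A, at a mean step of 3.75 and 3.76 in Control, had 4.93 anchors per Mb in the Control list. For the bins that left A the counting intervals of the 3 lists overlapped. Over the autosomes Brg1KD had 5848 loops, Ino80KD 5330 and Control 5758.

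Loops with an anchor in these bins numbered 140 in Brg1KD, 138 in Ino80KD and 160 in Control, with a median span of 340, 310 and 330 kb. Of the 160 Control loops, 94 (58.8%) had no loop with identical anchors in the Brg1KD list, with 54.1% over all Control loops, and 44 (27.5%) had none within 20 kb, with 20.3% over all. For the weak A bins that stayed the share with none within 20 kb was 19.3%, and for bins that stayed in B it was 25.1%. In the other direction, 22 of the 140 Brg1KD loops (15.7%) had none within 20 kb in the Control list, with 21.5% over all Brg1KD loops. Against the Ino80KD list, 86 of the 160 Control loops (53.8%) had no loop with identical anchors, with 53.1% over all, and 41 of the 160 Control loops (25.6%) had none within 20 kb, with 22.3% over all. Of the 138 Ino80KD loops, 16 (11.6%) had none within 20 kb in the Control list, with 16.1% over all Ino80KD loops. By stretch, 29 had fewer loops in Brg1KD than in Control, 13 had more, 37 had equal numbers, and 52 had none in either list. No like count is given for stretches that stayed in A, so this split is a description and was not tested.

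Of the 44 Control loops without a Brg1KD loop within 20 kb, 14 had an end of a protein-coding gene at an anchor. No like share over all Control loops is given, so this count does not set these loops apart. In the Kif26b stretch the loop from the start of the gene (chr1:178520001-178530000) to chr1:179140001-179150000, was in the Ino80KD and Control lists and not in that of Brg1KD, while a loop of 950 kb from the same anchor had a match within 20 kb in both knockdowns. In the stretch of Cfap161 a loop of 80 kb from that gene (chr7:83790001-83800000 to chr7:83870001-83880000) was in the Control list alone. In the longest stretch all 4 Control loops had a Brg1KD loop within 20 kb, among them the one that ends at Arl4c (chr1:88560001-88570000 to chr1:88700001-88710000), which had identical anchors in all 3 lists. The third stretch, of Hecw1 and Psma2, had 0 loops in any list. Stretches that left A thus differed in whether the Brg1KD list lacked their Control loops.

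Where only 1 anchor lay in a bin that left A, the share of partners in bins that stayed in A was below that of all anchors of the list, without a test. Of 117 such loops in Brg1KD, 56 (47.9%) had the other anchor in bins that stayed in A and 37 (31.6%) in bins that stayed in B. In Ino80KD it was 55 (47.0%) and 40 (34.2%) of 117, and in Control 68 (50.4%) and 45 (33.3%) of 135. The other partners, 20.5% in Brg1KD, 18.8% in Ino80KD and 16.3% in Control, lay in bins with divided labels or none. Partners here exclude the bins that left A, while the shares over all anchors include them. Of all anchors, 58.7% lay in bins that stayed in A and 30.6% in bins that stayed in B in Brg1KD, 59.6% and 29.7% in Ino80KD, and 58.5% and 30.5% in Control. The 3 shares of partners in A lay within 4 percentage points of each other.

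The bins that left A were on all 19 autosomes, in unequal shares. Of the bins in A in both Control libraries, 5.12% left A in Brg1KD on chromosome 9, 4.31% on chromosome 1, 4.16% on chromosome 8 and 4.10% on chromosome 10. The lowest shares were 0.526% on chromosome 18 and 1.17% on chromosome 2. Chromosome 18, with 3 bins leaving A, had 39 bins entering it, and chromosome 10, with 40 leaving, had 1 entering. For Ino80KD the shares were highest on chromosome 5 (5.10%, with 3.59% in Brg1KD) and chromosome 19 (4.92%, with 3.28% in Brg1KD), and on chromosome 1, where Brg1KD had 57 bins leaving A, Ino80KD had 15 (1.14%). Since a stretch can hold up to 14 bins, a chromosome's share rests on few stretches, 10 on chromosome 1 and 3 on chromosome 18.

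**Figure D5:**
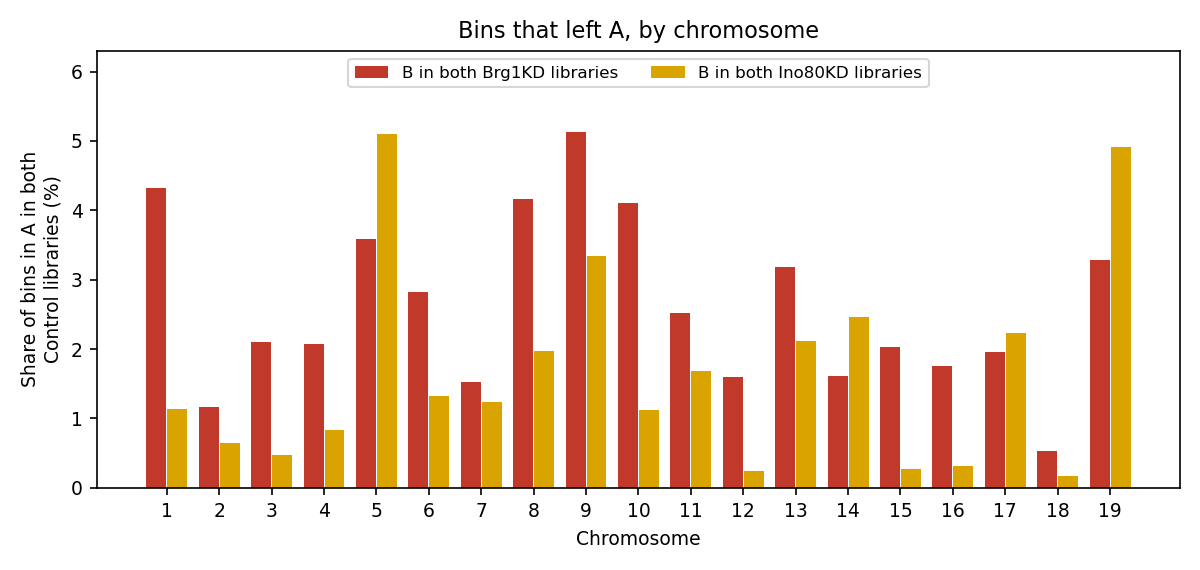
Share, per autosome, of the bins in A in both Control libraries that were in B in both Brg1KD libraries or in both Ino80KD libraries. Brg1KD has its highest share on chromosome 9 (5.12%) and its lowest on chromosome 18 (0.526%), and Ino80KD its highest on chromosome 5 (5.10%).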

How the data were processed

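Hi-C was measured in 6 libraries, 2 a group. Per the file headers and values, what the authors deposited was, for each library, segments with a subcompartment label and a score that ranks the labels in 8 equal steps, and, for each group, 1 list of loop anchor positions. Per the submitters' processing notes, the genome was mm10 and the tools included Juicer 2.0, BWA, HOMER, bedtools and SAMtools, with no roles stated; which tool called subcompartments and loops is not stated there. Read depth is unknown, so no interval on ranks was computed.

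Segments were divided into 50 kb bins, of which 47717 of 48009 had a label in all 6 libraries. Genes were placed by midpoint from RefSeq GRCm38.p6, and promoters by their start. Ranks of Ino80KD minus Control were fitted on all bins with limma 3.58.1 in R 4.3.3 (lmFit, eBayes, Benjamini-Hochberg threshold 0.05), without a block. Both fits were tested on simulated 8-step ranks, where the first called many bins that were not shifted, so a common variance is given beside it. Batch numbers pair the libraries, per the labels; deviations from group means correlated with r = 0.0984 between Brg1KD and Control and 0.102 between Ino80KD and Control. Members and gene lists were chosen with earlier results of these data known. The genes named are those of the 12 longest stretches (up to 6 each), of the 5 deepest, and list members (up to 4 a list), unless said otherwise; all 5 solute carriers, Krt17 and Krt42, Kctd12, Ext1, Cemip2, Zmat4, Stx3, Pigr, Fcamr and Fcmr were added after their values were seen.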

Additional observations from a re-analysis of the deposited data

How the results depend on the processing

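The number of bins that left A rests on the demand that all 4 libraries be unanimous: it was 478, but 817 to 868 without any 1 of the Brg1KD or Control libraries (fewest when Brg1KD replicate 1 was dropped, most when Control replicate 1 was). With stricter ranks (B.1.2 or lower in both Brg1KD libraries and above A.2.2 in both Control libraries) 17 bins were left. Bins of 100 kb gave the equivalent of 462 bins, and asking for labels in the Brg1KD and Control libraries alone gave 478.

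The share with both Ino80KD libraries in B was 32.2%, and 23.1% to 49.8% when 1 library was left out, the highest without Ino80KD replicate 2 and the lowest without Brg1KD replicate 2. It was 27.7% in 100 kb bins and 33.7% with the mean of both Ino80KD libraries. Bins called towards B in Ino80KD by limma (Benjamini-Hochberg adjusted) numbered 126 and again 126 with the replicate block, 26 with a common variance, and 144 to 209 with 1 library left out, where a lone library is assumed to vary like the other groups; of these, the 209 without Ino80KD replicate 2 exceeded 126 by over 1.5 times. Gene density was 5.36 per Mb by midpoint and 7.74 counting every gene that overlaps, and anchor counts were the same by overlap. The 94 Control loops absent from the Brg1KD list were 44 when anchors within 20 kb counted as matched. Labels have no depth or error per bin, so a change of 1 step next to the border cannot be weighed bin by bin.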
